A study of Mus musculus with 8 samples.

Results

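A set of 97 genes lay lower in mouse mesenchymal stromal cells carrying a hairpin against Irf7 than in their controls, with no overlap between the groups, after the best known interferon gene families had been removed by name. The filter on names was not complete: 10 of the 97 are still known interferon-stimulated genes, among them Iigp1 and Igtp, immunity-related GTPases whose symbols do not start with Irg. The genes were selected on their measured values: of 19572 array probe sets with 1 gene symbol, those were kept whose highest value over the 4 shIRF7 arrays was below the lowest value over the 4 control arrays, whose mean difference was -1 or lower on the log2 scale, and whose mean over the controls was at least 6. The 3 limits left 141 probe sets (0.72% of those named), of which 44 were then dropped by name. The name filter covered families such as Ifi, Irf, Oas, Gbp, Trim, Parp, Stat, H2- and Slfn, 8 single genes, Riken clones and predicted genes. Stat genes, Riken clones and the single gene Thy1 were on the filter, but none of them was among the 44. The difference between shIRF7 and the controls chose the members, so every value on it below is a description and carries no test.

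The study profiled total RNA from stromal cells of the inguinal fat pad of male FVB mice, 12 months old, on Affymetrix mouse arrays. The cells of all 8 arrays had been infected with the lentiviral vector pLKO.1, which was empty on 2 arrays, coded for a scrambled hairpin on 2 and for a hairpin against Irf7 on 4. Nothing in the labels says whether replicates of a group came from separate animals, cultures or infections, so the spread between arrays may be technical. The labels give no hairpin sequence, so whether the 4 shIRF7 arrays carry the same hairpin is not known. An effect of lower Irf7 cannot be told apart from another effect of a hairpin. In RNA from a whole culture, fewer cells of a type and less RNA per cell cannot be told apart either.

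IRF7 is a transcription factor that is switched on when cells sense viral nucleic acid; it drives type I interferon genes and genes that interferon induces. Many such genes carry an interferon response element in their promoter, built from repeats of the letters GAAA spaced by a few bases, while STAT dimers bind a palindrome that starts with TTC and ends with GAA. Stromal cells of fat respond to interferon, and they also support tissue by secreting matrix and by signalling through adhesion and cytokine receptors, classes to which many of the members belong.

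Promoter sequence is a feature the rule did not use. RefSeq promoters (GRCm38.p6; 250 bases before to 50 bases after the start of a gene) were found for 78 of the 97 members. GAAA, any 2 bases and GAAA again, read on either strand (TTTC, any 2 bases, TTTC), occurred in 10 of the 78 (12.8%, exact binomial 95% interval 6.32% to 22.3%), and in 3.94% of 15691 named genes with a promoter. Members on a list of interferon-stimulated genes held it in 4 of 7 promoters (57.1%, interval 18.4% to 90.1%), the other members in 6 of 71 (8.45%, interval 3.16% to 17.5%), and the genes dropped by name in 14 of 34 (41.2%). The windows of 5 members are printed because they show both kinds of member: Apol9a and Igtp are interferon-induced genes, while Clca3a1, Elk4 and Lamp1 are on no interferon list. Capitals mark the matched letters, and each run is written 5′ to 3′ on the gene's own strand.
Apol9a: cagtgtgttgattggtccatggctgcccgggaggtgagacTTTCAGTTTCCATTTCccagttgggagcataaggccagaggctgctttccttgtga
Igtp: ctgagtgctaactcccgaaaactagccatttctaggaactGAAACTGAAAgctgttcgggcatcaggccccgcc
Clca3a1: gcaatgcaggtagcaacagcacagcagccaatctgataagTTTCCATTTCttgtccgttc
Elk4: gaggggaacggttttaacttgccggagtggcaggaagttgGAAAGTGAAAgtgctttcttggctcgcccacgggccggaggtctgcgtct
Lamp1: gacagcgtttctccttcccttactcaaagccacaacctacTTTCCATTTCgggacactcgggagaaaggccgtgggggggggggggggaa
In GRCm38.p6 the windows lie upstream of the gene start, Apol9a's at chr15:77411084.0-77411179.0 on the minus strand, Igtp's at chr11:58199482.0-58199555.0 on the plus strand, Clca3a1's at chr3:144760978.0-144761037.0 on the minus strand, Elk4's at chr1:132008251.0-132008340.0 on the plus strand and Lamp1's at chr8:13158986.0-13159075.0 on the plus strand.
Apol9a and Apol9b, near-identical genes on chromosome 15, share the whole 96-base window, in which 2 matches overlap. Clca3a1 has its match 11 to 20 bases before the start, closer than in the other 4 windows shown. Igtp has it 25 to 34 bases before the start and Elk4 45 to 54 bases. The match of Eif2ak2 lies 19 to 28 bases after the start and is not printed. Ddost, Itga3 and Ldlrad3 are the other members with a match. A longer form, with CT added after the second GAAA, was found in Apol9a, Apol9b and Clca3a1 only among the 78 (3.85%), and in 0.363% of all named genes. TTC, any 3 bases and GAA occurred in 7 of 78 member promoters (8.97%) and in 9.02% of all, in Eif2ak2, Igtp, Pigu, Prdm4, Rasl11a, Tlr1 and Ube2z. No promoter was in the table for Iigp1, Rtp4, Tor3a and others. These are matches of letters in a window, counted with no test; near-identical copies such as the Apol9 pair count more than once.

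**Figure D1:**
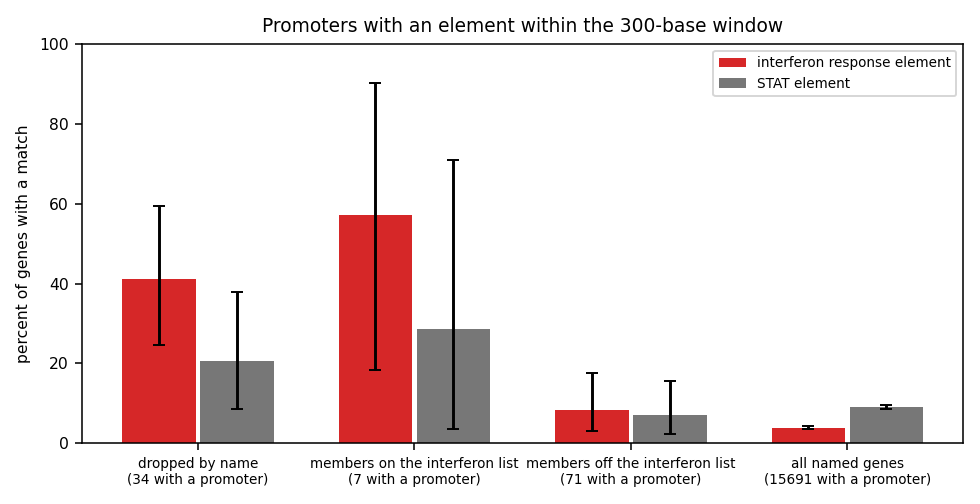
Percent of genes with a promoter in the RefSeq table that hold the interferon response element (red) or the STAT element (grey) within the window, for the genes dropped by name, the members on and off the interferon list, and all named genes; error bars are exact binomial 95% intervals. The interferon response element reached 57.1% of 7 interferon-list members and 8.45% of the other 71, beside 3.94% of all named genes.

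Irf7, the target of the hairpin and no member, checks the labels. It averaged 9.62 ± 0.096 (SD, n = 4) over the 4 controls and 5.83 ± 1.06 (SD, n = 4) over the shIRF7 arrays, where replicate 1 was lowest at 4.42 and replicate 4 highest at 6.79. The difference was -3.79 (13.8-fold), with an adjusted p of 0.0692 in limma across all genes, which ran from 0.0254 (without shIRF7 replicate 1) to 0.316 over the alternatives tried, and was 0.0299 with both controls as 1 group. By a two-sided exact permutation test over the arrays p was 0.0286; no smaller p is possible with 8 arrays split 4 and 4.

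Among all 19505 genes limma called 6 lower in shIRF7 (0.0308%) and 0 higher at an adjusted p under 0.05, and 800 were lower among the 1583 with an unadjusted p under 0.05. None of the 6 is a member, since all were dropped by name. Leaving out 1 array moved the 6 to 28 (without shIRF7 replicate 1), 3 (without shIRF7 replicate 4), 2 (without empty vector replicate 2) or 0 (without either scramble replicate, or without shIRF7 replicate 2 or 3); a control group left with 1 array is assumed to vary like the others. A group without overlap on its own was not rare: 547 named probe sets (2.79%) had all 4 shIRF7 values below all 4 controls. The number of members grew to 164 without empty vector replicate 1 and to 241 without shIRF7 replicate 1, and of the 97 then 84 and 89 were still chosen. With fewer arrays the limit on overlap is looser.

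Differences of the 97 members ran from -3.15 for Ildr2 to -1.01 for Tor3a, with a median of -1.32 beside 0.0017 over all genes, and 16 members were at least 4-fold lower. Their levels spanned most of the array's range, with control means from 6.13 (Gatm) to 16.1 (Flna). Of the members, 70 had all 4 control values above the 95th percentile of the array's negative controls. In shIRF7 41 members stayed above it on all 4 arrays, 33 were at or below it on all 4, and 23 crossed it. On all 8 arrays, controls included, 10 were at or below it: Tlr1, Krt80, Igtp, Pi15, Ceacam1, Tmem120a, Fam131b, Dagla, Chml and Gatm. A further 17 members had 1 to 3 of their controls at or below it. For the 56 members with shIRF7 values there the size of a difference is uncertain in either direction, since a value in the range of the negative controls need not follow the RNA. The gap between the lowest control and the highest shIRF7 value was at least 1 for Phf11d, Prps2, Sema3c, Adgrg2, Ptpn21, Gltp, Pla1a, Oaz2, Epn1 and Ttc19, and under 0.1 for 15 members. Within replicate 1 (shIRF7 against the mean of both controls of that number) 56 members were lower by 1 or more. Within replicate 2 the count was 76, and 39 members reached -1 in both. That all 97 were lower within each replicate was fixed by the rule. The shared number may not pair shIRF7 with these controls. Against scramble alone and empty vector alone, 78 members were at -1 or lower both times.

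**Figure D2:**
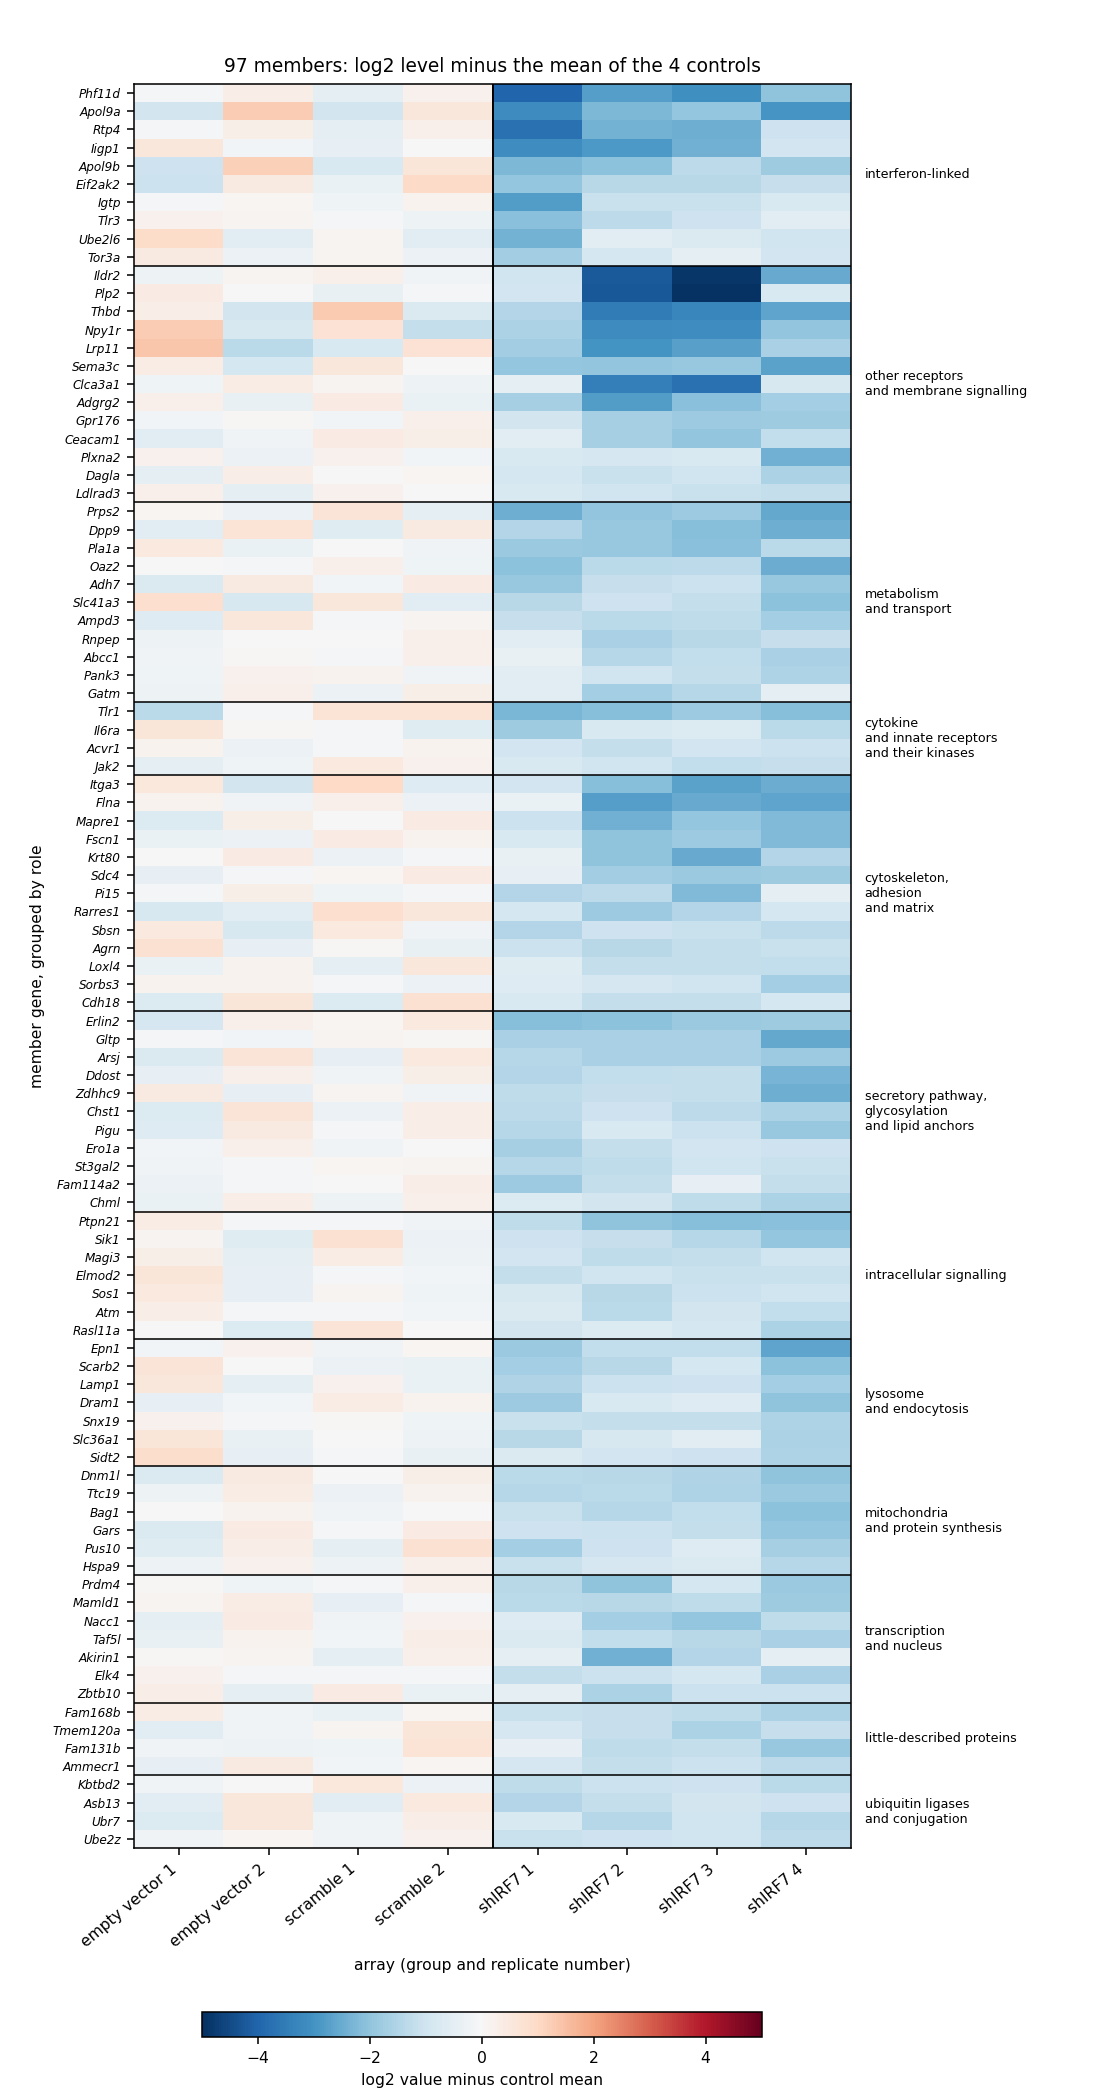
Each of the 97 members (rows, grouped by role) on each of the 8 arrays (columns); colour is the log2 value minus the mean of the gene's 4 control values. The 4 shIRF7 columns are blue throughout because the rule required it, but the darkest column differs between groups: shIRF7 replicate 1 for all 10 interferon-linked members, replicate 2 or 3 for 9 of the 13 receptors, replicate 4 for all 7 lysosomal and endocytic members.

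Of 12 measured markers of stromal cells, the labelled cell type, 8 were above the 95th percentile of the negative controls on all 8 arrays, while Nt5e and Lum were at or below it on all. All 10 measured macrophage markers, 5 T and B cell markers, 6 endothelial and 6 epithelial markers were at or below that percentile on all arrays. Of 5 mural markers 4, and of 5 adipocyte markers 4, were there too. Summed over the 10 macrophage markers, log2 values were 32.4 to 35.8 in the controls and 32.8 to 34.7 in shIRF7; over the 6 endothelial markers 21.8 to 24.99 and 22.8 to 25.6; over the 12 stromal markers 146 to 161 and 141 to 151. The median difference of the stromal markers was -0.19, and 2 of them lay below all controls, beside 2.79% of all named probe sets. In limma 0 stromal markers passed the adjusted threshold, while 4 were lower and 0 higher at an unadjusted p under 0.05. Median log2 values of the negative controls were 4.18 in shIRF7 replicate 1 and 4.56, 4.54 and 4.33 in replicates 2 to 4, beside 4.21 and 4.26 in replicate 1 and 4.55 and 4.56 in replicate 2 of the empty vector and scramble groups. Named probe sets above the negative controls made up 31.6% to 36.7% per array.

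Interferon-linked genes were a minority of the set: of the 97 members 10 are on a list of interferon-stimulated genes outside the dropped families, of which 86 of 102 were measured; the list had a median of -0.34 (-0.22 without the members), and limma, adjusted over all genes, called 0 of its genes in either direction, beside 30 lower and 0 higher at an unadjusted p under 0.05 (20 of the 30 are no members). On that list 19 genes lay below all controls, as the rule required of the 10 members among them, and 1 above. Over all named probe sets 2.79% lay below all controls. Phf11d, a PHD-finger protein induced by interferon, measured 9.55 and 9.92 with the empty vector, 9.09 and 9.80 with the scramble hairpin, and 5.64, 6.83, 6.52 and 7.56 in shIRF7 replicates 1 to 4. The groups were 1.53 apart at their closest, the widest gap of any member, and shIRF7 replicate 1 was lowest. The mean difference was -2.95 (7.73-fold). All 4 shIRF7 arrays of Phf11d were at or below the negative controls' 95th percentile. Its probes may also read transcripts of other Phf11 genes, a family of similar sequences.
Rtp4, an interferon-induced chaperone that brings receptors to the cell surface, measured 10.94 and 11.29 with the empty vector, 10.53 and 11.28 with the scramble hairpin, and 7.27, 8.66, 8.56 and 9.97 in shIRF7 replicates 1 to 4. All controls lay between 10.53 and 11.29 and shIRF7 replicate 4 came nearest to them; the mean difference was -2.40. Iigp1, an immunity-related GTPase that attacks the vacuoles of intracellular parasites, measured 8.09 and 7.41 with the empty vector, 7.15 and 7.52 with the scramble hairpin, and 4.43, 4.66, 5.14 and 6.59 in shIRF7 replicates 1 to 4. All 4 shIRF7 arrays of Iigp1 and 3 of its 4 controls were at or below the negative controls' 95th percentile. Replicate 4 was its highest shIRF7 array, and its mean difference was -2.34. Igtp, a regulator GTPase of the same family, measured 6.87 and 7.02 with the empty vector, 6.73 and 7.08 with the scramble hairpin, and 4.14, 5.82, 5.81 and 6.18 in shIRF7 replicates 1 to 4. The controls of Igtp lay within 0.35 of each other and shIRF7 replicate 1 lay 1.67 below the next shIRF7 array, but all 8 values were at or below the negative controls' 95th percentile.

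The Apol9 genes code for a pair of interferon-induced apolipoprotein L proteins, and their probes may read each other's transcripts. Apol9a measured 11.82 and 13.98 with the empty vector, 11.80 and 13.30 with the scramble hairpin, and 9.57, 10.47, 10.80 and 9.77 in shIRF7 replicates 1 to 4. Apol9b measured 6.76 and 9.01 with the empty vector, 7.03 and 8.43 with the scramble hairpin, and 5.57, 5.73, 6.504 and 6.04 in shIRF7 replicates 1 to 4. For Apol9b all 4 shIRF7 arrays and 3 of the 4 controls were at or below the negative controls' 95th percentile. In both Apol9 genes the replicate 2 controls were higher than the replicate 1 controls, by 1.83 and 1.82, beside mean differences from shIRF7 of -2.57 and -1.84. Both replicate 1 controls nevertheless lay above every shIRF7 array. Eif2ak2, the kinase PKR that halts translation on double-stranded RNA, showed the same order among its controls. It measured 10.85 and 12.36 with the empty vector, 11.59 and 12.85 with the scramble hairpin, and 9.99, 10.51, 10.51 and 10.76 in shIRF7 replicates 1 to 4. The lowest control of Eif2ak2, empty vector replicate 1, was only 0.091 above shIRF7 replicate 4, and leaving out that control moved its difference from -1.47 to -1.83.
Tlr3, the endosomal receptor for double-stranded RNA, measured 10.58 and 10.52 with the empty vector, 10.33 and 10.11 with the scramble hairpin, and 8.28, 9.08, 9.33 and 9.87 in shIRF7 replicates 1 to 4. Its 4 controls lay within 0.47 of each other and its shIRF7 arrays were spread over 1.59. Ube2l6, the conjugating enzyme that passes ISG15 to its substrates, measured 12.14 and 10.68 with the empty vector, 11.33 and 10.67 with the scramble hairpin, and 8.83, 10.65, 10.47 and 10.22 in shIRF7 replicates 1 to 4. The groups of Ube2l6 almost touched (0.017), and its difference was -2.91 within replicate 1 but -0.024 within replicate 2. Without shIRF7 replicate 1 the mean difference of -1.16 became -0.76. Tor3a, an interferon-responsive ATPase of the torsin family in the endoplasmic reticulum, measured 13.60 and 12.83 with the empty vector, 13.26 and 12.83 with the scramble hairpin, and 11.39, 12.24, 12.67 and 12.19 in shIRF7 replicates 1 to 4. Its difference of -1.01, the smallest of the set, was -2.04 within replicate 1 and -0.59 within replicate 2.

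Other genes of that list were no members. Ccl2, a monocyte chemokine, differed by -1.55, Plac8 by -1.37, Ccl5, a T cell chemokine, by -1.36, and Tgtp2, a further GTPase of the Iigp1 kind, by -1.30; none passed the threshold. For the core of the dropped families the median over 48 measured genes was -1.35, with 3 called lower. Of these genes 35 lay below all controls, beside 2.79% of all named probe sets. Among the members, 3 stood directly beside a dropped gene of the 141 in the RefSeq gene order: Igtp next to Irgm2 (-1.48), Agrn next to Isg15 (-2.68) and Ampd3 next to Rnf141 (-1.96).

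**Figure D3:**
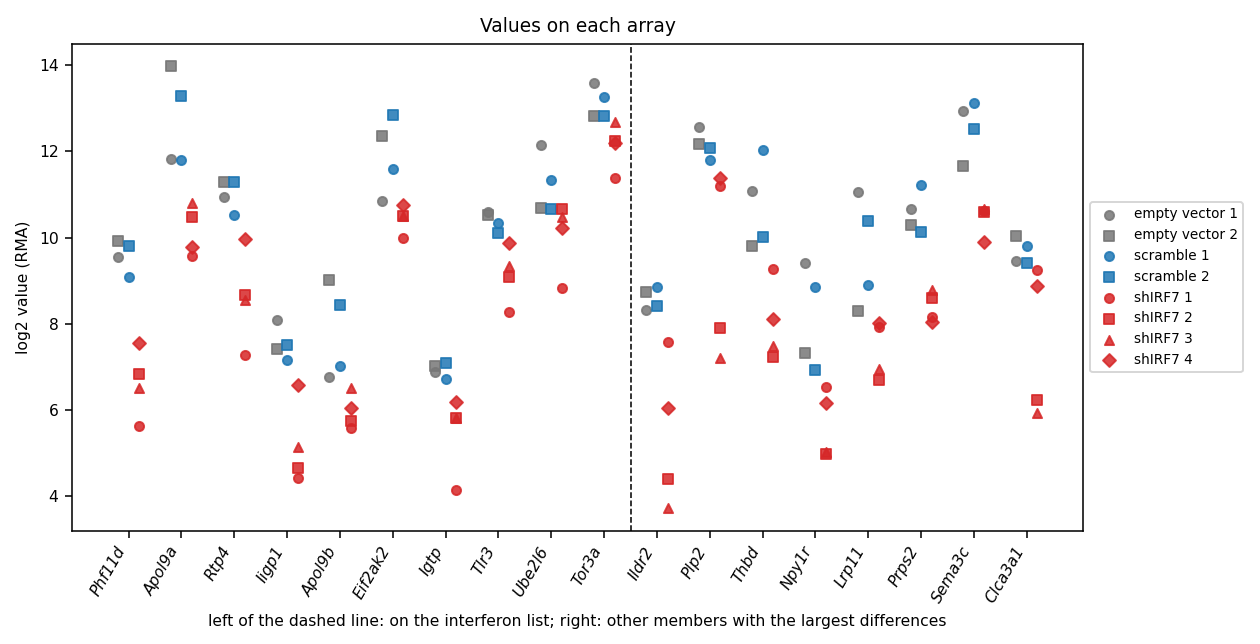
log2 values on each array for the 10 interferon-list members (left) and the other 8 of the 12 members with the most negative mean difference (right); colour gives the group and symbol the replicate number. shIRF7 replicate 1 (red circles) is lowest for all 10 genes on the left, whereas for Ildr2, Plp2 and Clca3a1 on the right replicates 2 and 3 are lowest, with Plp2 at 7.90 and 7.21 beside 11.20 in replicate 1.

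The order of the 4 shIRF7 arrays, which the rule did not set, divided the members. All 10 interferon-list members were lowest in replicate 1, and 6 of them were highest in replicate 4. Irf7 had its lowest and highest shIRF7 values on those same arrays. All 4 of these Irf7 values were at or below the negative controls' 95th percentile, and a link between the orders was not tested. Of the genes dropped by name 33 of 44 (75%) were lowest in replicate 1. Of the other 87 members 11 were lowest there (12.6%), 19 in replicate 2, 14 in replicate 3 and 43 in replicate 4 (49.4%), and replicate 1 was the highest of the shIRF7 arrays for 47 (54.0%). Over all named probe sets replicate 1 was lowest in 30.9% and highest in 31.1%. Replicates 2, 3 and 4 were lowest in 22.5%, 23.8% and 22.8% of them. The same arrays gave the values that chose the members, so the counts are a description with no test. After cyclic loess between arrays they were 10 of 10 and 9 of 87.
Replicate 1 differed from the mean of replicates 2 and 3 by -0.47 to -1.73 in the 10 interferon-list members. The negative control median differed by -0.37 in the same direction, and its part in the order was not tested; the median of all named probe sets differed by 0.013. Of the 10, Apol9a, Eif2ak2, Tlr3, Ube2l6 and Tor3a were above the negative controls' 95th percentile on all 4 shIRF7 arrays, and Igtp was at or below it on all 8. Of the other members 16 were higher in replicate 1 by 1 or more: Ildr2, Plp2, Thbd, Npy1r, Lrp11, Clca3a1, Itga3, Flna, Mapre1, Fscn1, Krt80, Sdc4, Nacc1, Ceacam1, Akirin1 and Gatm. Only Dram1, Fam114a2 and Il6ra among the 87 were lower in replicate 1 by 1 or more. Replicates 2 and 3 of shIRF7 were the closest arrays of one group, with an SD of 0.32 over genes of their difference beside 0.50 to 0.92 for the other pairs.

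**Figure D4:**
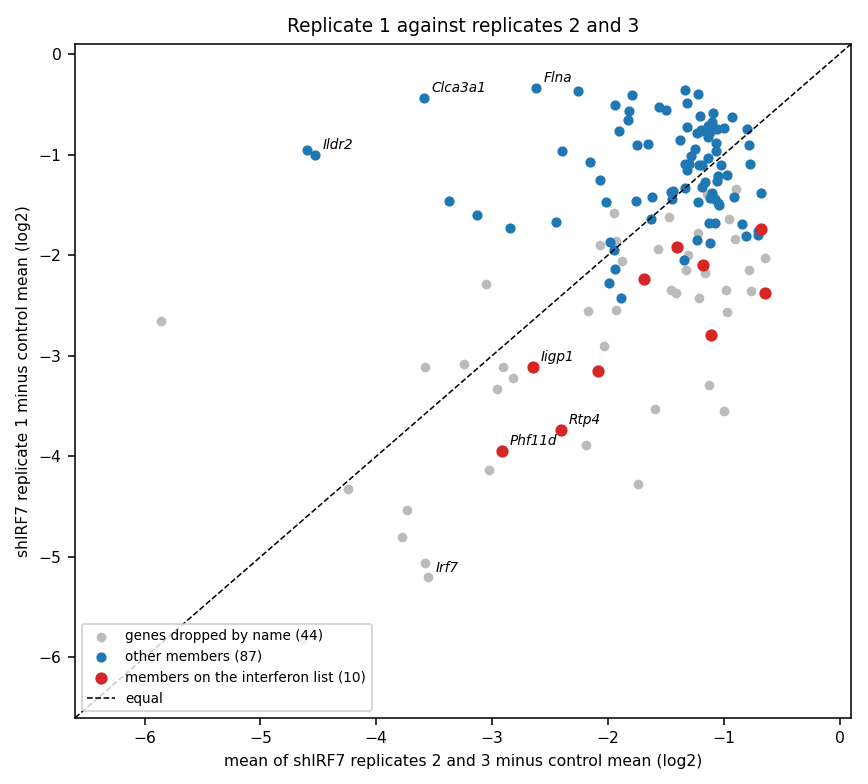
Each point is a gene: the mean of shIRF7 replicates 2 and 3 minus its control mean (x axis, log2) against replicate 1 minus its control mean (y axis, log2); the dashed line marks equal values. The 10 interferon-list members (red) lie below the line, as does Irf7, and Ildr2, Clca3a1 and Flna lie far above it.

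**Figure D5:**
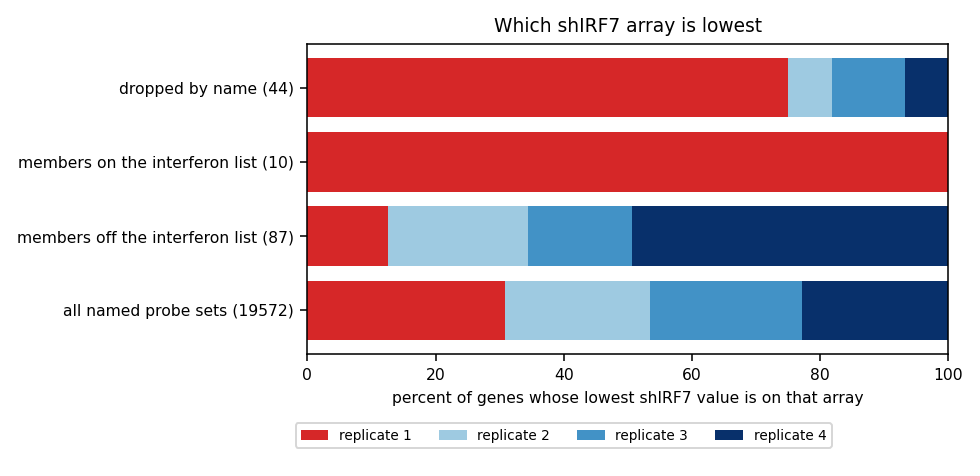
Percent of genes whose lowest shIRF7 value was on each replicate, for the genes dropped by name, members on and off the interferon list and all named probe sets. Replicate 1 takes 75% and 100% of the first 2 sets, 12.6% of the other members and 30.9% of all named probe sets.

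Receptors and membrane signalling proteins formed one of the largest groups (13 members; median difference -2.10, the lowest of the 12 role groups), and 9 of the 13 were lowest in shIRF7 replicate 2 or 3. Ildr2, an immunoglobulin-like membrane receptor, had the largest difference of the set. It measured 8.33 and 8.73 with the empty vector, 8.84 and 8.41 with the scramble hairpin, and 7.58, 4.39, 3.71 and 6.05 in shIRF7 replicates 1 to 4. All 4 of its shIRF7 values were at or below the negative controls' 95th percentile. Its controls lay within 0.52 of each other while its shIRF7 values spanned 3.86, and its difference was -1.01 within replicate 1 and -4.18 within replicate 2. Plp2, a small membrane proteolipid, repeated that shape at a higher level. It measured 12.57 and 12.17 with the empty vector, 11.80 and 12.07 with the scramble hairpin, and 11.20, 7.90, 7.21 and 11.38 in shIRF7 replicates 1 to 4. Replicates 1 and 4 of shIRF7 stood 0.59 and 0.41 below the lowest control, while replicates 2 and 3 were under the 95th percentile of the negative controls. Clca3a1, a relative of the calcium-activated chloride channel accessory proteins, measured 9.45 and 10.03 with the empty vector, 9.80 and 9.41 with the scramble hairpin, and 9.24, 6.24, 5.92 and 8.88 in shIRF7 replicates 1 to 4. It too was near the controls in replicates 1 and 4 and more than 3 below them in replicates 2 and 3; probes of its close relatives may read the same transcripts. The mean difference of Plp2 (-2.73) or Clca3a1 (-2.10) thus describes none of its 4 shIRF7 arrays closely.
Thbd codes for thrombomodulin, which turns thrombin into an anticoagulant. It measured 11.07 and 9.80 with the empty vector, 12.03 and 10.002 with the scramble hairpin, and 9.26, 7.22, 7.48 and 8.11 in shIRF7 replicates 1 to 4. The replicate 1 controls were higher than the replicate 2 controls by 1.65, and all shIRF7 arrays were lower than both. Npy1r, a receptor for neuropeptide Y, measured 9.42 and 7.31 with the empty vector, 8.85 and 6.93 with the scramble hairpin, and 6.53, 4.98, 5.02 and 6.16 in shIRF7 replicates 1 to 4. Its control replicates differed by 2.01, beside its mean difference of -2.45. Lrp11, a member of the low-density lipoprotein receptor family, measured 11.06 and 8.30 with the empty vector, 8.89 and 10.38 with the scramble hairpin, and 7.92, 6.68, 6.94 and 8.03 in shIRF7 replicates 1 to 4. Its controls were the most scattered of any member (SD 1.28), with the lowest of them, empty vector replicate 2, 0.27 above the highest shIRF7 array. For Npy1r and Lrp11 all 4 shIRF7 arrays were at or below the negative controls' 95th percentile.
Sema3c, a secreted guidance cue of the semaphorin family, measured 12.93 and 11.67 with the empty vector, 13.13 and 12.53 with the scramble hairpin, and 10.62, 10.58, 10.65 and 9.89 in shIRF7 replicates 1 to 4. Replicates 1 to 3 of shIRF7 lay within 0.072 of each other and replicate 4 was lower still, all more than 1 below the lowest control. Plxna2, a plexin receptor for semaphorins, averaged 9.12 ± 0.27 (SD, n = 4) in the controls, and here too replicate 4 (6.71) was far under the other shIRF7 arrays (8.30 to 8.37). Adgrg2 and Gpr176, both G protein-coupled receptors, differed by -2.07 and -1.54, and both were at or below the negative controls' 95th percentile on all 4 shIRF7 arrays. Dagla, which makes an endocannabinoid from diacylglycerol, differed by -1.15.

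Cytokine and innate receptors with their kinase counted 4 members. Tlr1, which pairs with TLR2 to sense bacterial lipopeptides, differed by -2.10: it averaged 6.93 ± 0.96 (SD, n = 4) over the controls and 4.83 ± 0.19 (SD, n = 4) over the shIRF7 arrays, and all 8 arrays were at or below the negative controls' 95th percentile. Il6ra, the receptor chain that binds interleukin-6, differed by -1.13, by -2.03 within replicate 1 and -0.48 within replicate 2. Acvr1, a type I receptor for bone morphogenetic proteins, had one of the most even shIRF7 groups (7.53 ± 0.10 (SD, n = 4)) at a difference of -1.05. Its 4 shIRF7 values were at or below the negative controls' 95th percentile. Jak2, the kinase that several cytokine receptors share, was the brightest of the 4 and differed by -1.04 (controls 12.95 ± 0.44 (SD, n = 4), shIRF7 11.91 ± 0.20 (SD, n = 4)). On the list of nucleic acid sensing genes, Eif2ak2 and Tlr3 were members and the median of 21 measured genes was -0.042; Ddx58 (-0.96), Ticam1 (0.57), Cgas (-0.50) and Tlr7 (-0.50) differed most among the others. In limma none passed the threshold, and 2 of the non-members had an unadjusted p under 0.05.

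Cytoskeleton, adhesion and matrix genes were 13 members with a median of -1.37, and 9 were lowest in replicate 2 or 3. Flna codes for filamin A, which crosslinks actin, and was the brightest member. It measured 16.32 and 15.97 with the empty vector, 16.42 and 15.87 with the scramble hairpin, and 15.81, 13.40, 13.64 and 13.51 in shIRF7 replicates 1 to 4. Replicate 1 of shIRF7 lay 0.058 below the lowest control, while the other 3 lay more than 2 below it. Fscn1, the actin bundling protein fascin, had the same shape: 15.64 ± 0.36 (SD, n = 4) in the controls, 14.88 in shIRF7 replicate 1 and 13.45 to 13.84 in replicates 2 to 4. Mapre1, which tracks the growing ends of microtubules, averaged 13.37 ± 0.48 (SD, n = 4) in the controls and 12.30 in shIRF7 replicate 1, beside 10.99 to 11.46 in the others. In these 3 genes shIRF7 replicate 1 was the array nearest to the controls.
Itga3, the alpha chain of a laminin-binding integrin, differed by -2.06, with control replicates 1.54 apart. Sdc4, a heparan sulfate proteoglycan of focal adhesions, measured 12.02 and 12.32 with the empty vector, 12.52 and 12.82 with the scramble hairpin, and 12.01, 10.69, 10.56 and 10.64 in shIRF7 replicates 1 to 4. It lay nearest to overlap of all members (0.012), again through shIRF7 replicate 1. On the list of integrins and adhesion receptors, Itga3 and Sdc4 were among 21 measured genes of median 0.0062, and Cd44 (-1.34), Itga5 (-1.24), Itgb3 (1.23) and Alcam (1.10) differed most among the others; limma called 0, and 5 of the non-members had an unadjusted p under 0.05. Agrn, the basement membrane proteoglycan agrin, differed by -1.20, and its 4 shIRF7 arrays agreed closely (6.502 ± 0.14 (SD, n = 4)). Those 4 arrays and 3 of its 4 controls were at or below the negative controls' 95th percentile. Loxl4, a lysyl oxidase that crosslinks collagen, differed by -1.06; shIRF7 replicate 1 (8.94) stood above the other 3 (8.33 to 8.36). Krt80, a keratin, differed by -1.59 and was at or below the negative controls' 95th percentile on all 8 arrays. Pi15, a secreted protein of the CRISP superfamily, Sbsn (suprabasin), Sorbs3 (vinexin, an adaptor at focal adhesions) and Rarres1, a retinoic acid-responsive membrane protein, had differences between -1.37 and -1.05. Of the 29 measured matrix genes on the list none was a member; the median was -0.17, and Mmp3 (-2.14), Timp3 (-1.51), Plod2 (1.16) and Plod1 (0.91) differed most; limma called 0, and 6 had an unadjusted p under 0.05.

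Metabolic enzymes and transporters counted 11 members with a median of -1.41, of which 7 were lowest in replicate 4. Prps2, which makes phosphoribosyl pyrophosphate for nucleotide synthesis, measured 10.67 and 10.29 with the empty vector, 11.21 and 10.12 with the scramble hairpin, and 8.15, 8.60, 8.77 and 8.03 in shIRF7 replicates 1 to 4. The highest shIRF7 array stayed 1.34 below the lowest control, so that the groups were well separated at a difference of -2.19. Pla1a, a phosphatidylserine phospholipase, averaged 11.91 ± 0.37 (SD, n = 4) over the controls and 10.11 ± 0.31 (SD, n = 4) over the shIRF7 arrays. Oaz2, an antizyme that restrains polyamine synthesis, averaged 10.35 ± 0.19 (SD, n = 4) with the control vectors and 8.55 ± 0.55 (SD, n = 4) with shIRF7. Those 3 are among the 10 members with a gap of at least 1.
Dpp9, a dipeptidyl peptidase that holds back the NLRP1 inflammasome, differed by -1.99. Adh7, an alcohol dehydrogenase that oxidises retinol, differed by -1.499, and Slc41a3, a magnesium transporter, by -1.41, although Slc41a3 was -2.08 within replicate 1 and -0.33 within replicate 2. Ampd3 (AMP deaminase), Rnpep (aminopeptidase B), Abcc1 (an efflux pump for glutathione conjugates), Pank3 (pantothenate kinase, of coenzyme A synthesis) and Gatm (of creatine synthesis) differed by -1.38 to -1.02.

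Members of the secretory pathway, of glycosylation and of lipid anchoring were 11, with a median of -1.32, and were lowest in replicate 4 (7 genes) or replicate 1 (4 genes). Gltp, which moves glycolipids between membranes, averaged 11.47 ± 0.11 (SD, n = 4) in the controls, the smallest control spread of the set. In shIRF7 it was 9.83 to 9.85 in replicates 1 to 3 and 8.92 in replicate 4. Zdhhc9, which palmitoylates Ras proteins, showed a similar step, from 10.19 to 10.32 in replicates 1 to 3 down to 9.05 in replicate 4. Ddost, a subunit of the oligosaccharyltransferase, was the brightest of the group (controls 14.58 ± 0.35 (SD, n = 4), shIRF7 13.02 ± 0.53 (SD, n = 4)) and was again lowest in replicate 4, at 12.25. Erlin2, a regulator of protein degradation at the endoplasmic reticulum, had the largest difference here (-1.95) and even shIRF7 values (7.61 ± 0.16 (SD, n = 4)). Those 4 values were at or below the negative controls' 95th percentile. Arsj (a sulfatase), Chst1 and St3gal2 (which add sulfate and sialic acid to glycans), Pigu (of the GPI anchor transamidase), Ero1a (which oxidises disulfides in secretory proteins), Fam114a2 and Chml (a Rab escort protein) differed by -1.62 to -1.12.

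All 7 members of the lysosome and endocytosis were lowest in shIRF7 replicate 4, with a median of -1.31. That replicate was lowest for 49.4% of the 87 members off the interferon list, and the role groups were written after the members were seen. Epn1, the clathrin adaptor epsin, averaged 11.10 ± 0.18 (SD, n = 4) in the controls, with shIRF7 values of 9.25, 9.85, 9.88 and 8.48 in replicates 1 to 4. Lamp1, the main glycoprotein of the lysosomal membrane, averaged 15.58 ± 0.46 (SD, n = 4) with the control vectors and 14.26 ± 0.33 (SD, n = 4) with shIRF7. Scarb2, which carries glucocerebrosidase to lysosomes, differed by -1.49. Dram1, a p53 target of autophagy, Snx19, a sorting nexin, Slc36a1, which exports amino acids from lysosomes, and Sidt2, a lysosomal nucleic acid transporter, differed by -1.31 to -1.07. On the list of lysosomal and endosomal genes, with 26 measured and Lamp1 as its 1 member, the median was 0.16, and Neu1 (0.99), Ctsh (0.83), Atp6v0d1 (0.74) and Snx1 (0.49) were the largest among the rest; limma called 0, and 2 of the non-members had an unadjusted p under 0.05.

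Mitochondrial and protein synthesis genes were 6 members, 5 of them lowest in replicate 4. Dnm1l, the dynamin that divides mitochondria, averaged 13.57 ± 0.51 (SD, n = 4) with the control vectors and 12.01 ± 0.31 (SD, n = 4) with shIRF7. Ttc19, an assembly factor of respiratory complex III, differed by -1.54 with a gap of 1.04 between the groups. Bag1, a cochaperone of Hsp70, differed by -1.45 and was even in the controls (11.62 ± 0.15 (SD, n = 4)). Gars (glycyl-tRNA synthetase), Pus10 (a pseudouridine synthase) and Hspa9 (the mitochondrial chaperone mortalin) differed by -1.31 to -1.02.

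Intracellular signalling counted 7 members. Ptpn21, a tyrosine phosphatase with a FERM domain, averaged 9.09 ± 0.24 (SD, n = 4) in the controls, and in shIRF7 it was 7.83 in replicate 1 and 6.96 to 7.08 in the others. Sik1, a kinase of the AMPK family, differed by -1.38. Elmod2, an activator of GTP hydrolysis by small G proteins, had the smallest spread among its shIRF7 arrays of any member (8.11 ± 0.093 (SD, n = 4)). On 3 of those 4 arrays it was at or below the negative controls' 95th percentile. Sos1, the exchange factor that activates Ras, Atm, the kinase of the DNA damage response, Magi3, a scaffold of cell junctions, and Rasl11a, a Ras-like protein, differed by -1.11 to -1.01.
Transcription and nuclear factors were 7. Elk4, a partner of serum response factor whose promoter is printed above, averaged 10.62 ± 0.13 (SD, n = 4) with the control vectors and 9.43 ± 0.32 (SD, n = 4) with shIRF7 and differed by -1.19. Prdm4, a zinc finger protein, and Mamld1, a coactivator of the mastermind kind, differed by -1.53 and -1.45. Akirin1, a nuclear protein whose close relative takes part in NF-kB responses, was 5.95 in shIRF7 replicate 2 and 7.86 and 7.87 in replicates 1 and 4, which lay 0.059 and 0.043 below the lowest control. Nacc1 and Zbtb10, both BTB domain proteins, and Taf5l, a subunit of histone acetyltransferase complexes, differed by -1.396 to -1.05.
Ubiquitin system members Kbtbd2, Asb13 (substrate adaptors), Ubr7 (a ligase) and Ube2z (a conjugating enzyme) differed by -1.18 to -1.12. Ube2l6 was the 1 member on the list of ubiquitin-like conjugation, whose 24 measured genes had a median of -0.048. In limma 0 passed the threshold, while 6 were lower and 0 higher at an unadjusted p under 0.05 (5 of them no members). On this list 5 genes lay below all controls, Ube2l6 by the rule, beside 2.79% of all named probe sets. Fam168b, Tmem120a, Fam131b and Ammecr1, of little described function, differed by -1.28 to -1.10. The other lists held no member: medians were -0.069 for complement, -0.021 for cell death, 0.016 for trafficking, -0.15 for growth factors, 0.0995 for the cell cycle, 0.028 for lipid metabolism and 0.030 for housekeeping genes. In each, limma called 0, with 15 of their 149 genes at an unadjusted p under 0.05. Over all genes 1583 of 19505 had such a p, which is the background for the same counts on every list above.

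The difference between the 2 kinds of control was not a criterion of the rule, although all 4 control values entered it: a gene with 1 low control was less likely to be chosen. In limma, 0 of 19505 genes (0%) and 0 of the members differed between scramble and empty vector at an adjusted p under 0.05. At an unadjusted p under 0.05 the counts were 376 genes (1.93%) and 4 of 97 members (Tlr1, Rarres1, Jak2 and Tmem120a). Without empty vector replicate 2 they were 2260 genes and 11 members, in a fit where the empty vector group is 1 array assumed to vary like the other groups. The median of the members was 0.048, with 53 higher and 44 lower with the scramble.
Tlr1 differed most, measuring 5.599 and 6.87 with the empty vector, 7.62 and 7.63 with the scramble hairpin, and 4.65, 4.79, 5.10 and 4.79 in shIRF7 replicates 1 to 4; empty vector replicate 1 was the low control, and scramble minus empty vector was 1.39 (95% interval 0.51 to 2.28). Rarres1 measured 9.79 and 10.03 with the empty vector, 11.43 and 11.15 with the scramble hairpin, and 9.70, 8.77, 9.13 and 9.72 in shIRF7 replicates 1 to 4; both scramble arrays were above both empty vector arrays, a mean difference of 1.38 (95% interval 0.57 to 2.18). The next in size were Tmem120a at 0.72 (95% interval 0.05 to 1.396) and Ceacam1 at 0.72 (95% interval -0.28 to 1.71). In limma the unadjusted p was 0.00697 for Tlr1, 0.0044 for Rarres1, 0.0148 for Jak2 and 0.0385 for Tmem120a, and each adjusted p was 1.00. The largest differences in the other direction were Il6ra at -0.66 and Scarb2 at -0.61. For 25 members the 95% interval of scramble minus empty vector lay inside -1 to 1, and for the other 72 it reached -1 or 1 or beyond. Between control replicates of different number, 8 members were higher by 1 or more in replicate 2 and 5 lower, among them Apol9a, Apol9b, Eif2ak2, Npy1r and Thbd. The 13 are 13.4% of the members, beside 12.8% of all named probe sets.

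The limits of the rule cut through a continuous range. Failing the limit on the difference alone were 230 probe sets, on the overlap alone 155 and on the control mean alone 5. Just inside the limit on the difference, beside Tor3a, Ldlrad3, a low-density lipoprotein receptor relative, measured 9.75 and 9.04 with the empty vector, 9.70 and 9.50 with the scramble hairpin, and 8.75, 8.51, 8.38 and 8.32 in shIRF7 replicates 1 to 4. Cdh18, a cadherin, measured 8.31 and 9.62 with the empty vector, 8.34 and 9.78 with the scramble hairpin, and 8.25, 7.81, 7.81 and 8.12 in shIRF7 replicates 1 to 4. The Cdh18 controls split by replicate number, and its difference was -0.071 within replicate 1 and -1.89 within replicate 2. Just outside were the values of Ppp6r2, which were 8.26, 8.14, 7.77 and 8.41 in the controls (same order) and 7.06, 7.17, 7.39 and 6.98 in shIRF7. Ggct was next, with 8.20, 8.03, 8.44 and 8.07 in the controls (same order) and 7.85, 6.81, 6.89 and 7.25 in shIRF7. Zwint followed, with 12.03, 12.85, 12.14 and 12.89 in the controls (same order) and 11.60, 11.45, 11.54 and 11.39 in shIRF7. These 3 had no overlap either, and differed by -0.99, -0.99 and -0.98.
Just inside the limit on the control mean, Gatm measured 5.87 and 6.38 with the empty vector, 5.82 and 6.44 with the scramble hairpin, and 5.595, 4.42, 4.71 and 5.69 in shIRF7 replicates 1 to 4. Ceacam1, an adhesion molecule that also inhibits immune receptors, measured 5.72 and 6.08 with the empty vector, 6.68 and 6.55 with the scramble hairpin, and 5.69, 4.596, 4.28 and 5.03 in shIRF7 replicates 1 to 4. Chml measured 5.95 and 6.60 with the empty vector, 6.001 and 6.51 with the scramble hairpin, and 5.59, 5.35, 4.98 and 4.67 in shIRF7 replicates 1 to 4. All 3 were at or below the negative controls' 95th percentile on all 8 arrays. Just outside, Ccl5 had 5.50, 6.06, 6.46 and 5.63 in the controls (same order) and 4.58, 4.17, 4.39 and 5.08 in shIRF7. For C4b, a complement component, they were 7.07, 5.16, 6.09 and 5.14 in the controls (same order) and 4.71, 4.80, 4.91 and 4.66 in shIRF7. Lancl3 had 5.36, 5.36, 5.31 and 5.38 in the controls (same order) and 4.39, 3.65, 3.71 and 3.89 in shIRF7. Lancl3 had the most even controls of the 3 and a difference of -1.44.
Just outside the limit on overlap, the hexokinase Hk2 had 7.03, 7.95, 7.72 and 7.90 in the controls (same order) and 7.03, 5.39, 5.83 and 6.51 in shIRF7. Replicate 1 of shIRF7 passed its lowest control by 0.0025 only. Pde3b, a phosphodiesterase, had 9.49, 9.51, 10.06 and 9.56 in the controls (same order) and 9.53, 7.96, 7.89 and 9.10 in shIRF7. Tdrd7, itself interferon-induced, had 6.54, 7.51, 6.62 and 8.002 in the controls (same order) and 6.17, 5.81, 5.79 and 6.59 in shIRF7. Of these 3, Hk2 and Pde3b overlapped through shIRF7 replicate 1 and Tdrd7 through replicate 4.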

How the data were processed

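Per the submitters' processing notes, the authors ran RMA, which corrects background, normalizes arrays to each other and summarises probes, with version 1.4.1.46 of Affymetrix Expression Console, and deposited 1 log2 value per probe set and array. The sources used here name no genome build for the probes. The deposited log2 values of 8 arrays (28846 probe sets, 5222 of them negative controls) were used as given, with 0 array columns left out. Gene symbols came from the platform annotation, which names 1 gene for 19572 probe sets.

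The members and the gene lists were chosen with earlier results of these data known, and the 12 role groups were written after the members were seen. Members were found by the 3 value limits and the name filter. limma 3.58.1 in R 4.3.3 (lmFit, eBayes) was fitted with 3 group means on the 8 arrays (5 residual and 2.68 prior degrees of freedom) to 19505 genes, with the brightest probe set per gene, equally weighted controls, Benjamini-Hochberg adjustment over all genes and a threshold of 0.05; it was tested on simulated data. Its p-values measure only the spread between these arrays, whose small number limits the precision. A probe set counts as above background on an array where it exceeds the 95th percentile of the negative controls. Promoter letters were searched with Python 3.11.15 in RefSeq's GRCm38.p6 table.

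Genes were named by rule: Irf7; every member; all 8 values for the 12 most negative members, the members on the interferon list and the 3 genes on each side of each limit; the 4 members that differ most between the controls; and the genes that differ most on the lists. The 21 lists (482 genes) come from general knowledge; of the genes that differ most, only those of lists close to the members' roles are given. Alternatives were cyclic loess, a replicate block, trend and robust fitting, other limits of the rule, either control alone, both controls as 1 group, filters on dim genes, all probe sets, each array left out, other motif forms and, added after the data were seen, shIRF7 replicates 2 and 3 averaged.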

Additional observations from a re-analysis of the deposited data

Results flagged for a closer look

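In 9 of 98 groups examined (9.18%), 1 shIRF7 array stood apart from the other 3 of its group by a gap too wide for their range (Dixon's test at 95%). In unselected groups chance gives about 1 in 20, a rate that does not hold here, because the rule chose the members on these same values and the genes share arrays. For 5 members the array was replicate 1, which was the highest: Flna at 15.81 with the next at 13.64, Sdc4 at 12.01 with the next at 10.69, Loxl4 at 8.94 with the next at 8.36, Gpr176 at 7.87 with the next at 7.11, and Ptpn21 at 7.83 with the next at 7.08. For the other 4 it was replicate 4, which was the lowest: Plxna2 at 6.71 with the next at 8.30, Gltp at 8.92 with the next at 9.83, Zdhhc9 at 9.05 with the next at 10.19, and Sema3c at 9.89 with the next at 10.58. No control array was examined in this way, since each control group has 2 arrays or, pooled, holds 2 kinds of vector. None of the 9 is on the interferon list.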

How the results depend on the processing

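The rule's own limits and arrays moved the membership most: 34 genes met a limit of -1.5, 202 met the rule against scramble alone (89 of the 97 among them), and leaving out 1 array gave 96 to 241, with 84 to 93 of the 97 kept. Empty vector replicate 1 (164 without it) and shIRF7 replicate 1 (241) decided this count. Fewer arrays loosen the limit on overlap by construction. What else shaped these shifts was not tested. Cyclic loess gave 96, empty vector alone 113 and shIRF7 replicates 2 and 3 averaged 95. The members' median difference ran from -1.396 to -1.23 with 1 array left out. The 6 genes past the threshold in shIRF7 became 0 to 28 with 1 array left out, 3 with trend and robust fitting, 28 with both controls as 1 group and 0 with shIRF7 replicates 2 and 3 averaged. Irf7 passed the threshold with both controls as 1 group (-3.79, adjusted p 0.0299 in limma) and without shIRF7 replicate 1 (-3.31, 0.0254); over the left-out arrays it ran from -4.10 to -3.31. The median of scramble minus empty vector ran from -0.024 to 0.13, and the count of members past the threshold there was 0 in every fit run. The longer promoter form gave 3.85% and the element on the gene's own strand 6.41%. Of 24 single members under 240 alternatives, 4 values moved beyond their replicate spread and 0 reversed: Eif2ak2 to -1.83 without empty vector replicate 1, and Cdh18 to -1.25 and -1.24 without empty vector or scramble replicate 1 and to -0.76 without scramble replicate 2.

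Same-numbered arrays deviated together in the controls (correlation 0.76 between empty vector and scramble), and negative control medians followed the number in all 3 groups. The deviations of shIRF7, however, correlated at -0.31 to -0.16 with those of the controls. The number was therefore not used to pair shIRF7 with them in the main fit. Differences given within a replicate number are descriptions only. With the replicate block (2 residual degrees of freedom) the members' median was -1.29, 0 genes passed in shIRF7, Irf7 was -4.58 (adjusted p 0.267 in limma) and the median of scramble minus empty vector was 0.048.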
